A study of Mus musculus with 16 samples.

Results

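The transcripts of 7 genes were followed in the hearts of mice. Eci1, Eci2, Ech1 and Decr1 encode mitochondrial enzymes that prepare unsaturated fatty acids for oxidation. Etfa and Etfb encode the subunits of the electron transfer flavoprotein, and Etfdh encodes the oxidoreductase that takes electrons from it. The genes were chosen by name. All 7 of 7 were measured, each by 1 probe set that carries only that gene's symbol, among 22180 genes with a single-symbol probe set. Myocardial RNA was hybridised from 16 mice of the C57Bl/6J background, 1 array per mouse and 4 mice per group. Wild-type (WT) mice were compared with mice of the genotype Transgenic Clock delta 19/delta 19, below Clock mice, whose CLOCK protein binds its circadian partner BMAL1 but activates transcription poorly. Both genotypes were fed either standard chow or HFD, a high-fat diet, over 24 weeks, and the hearts were frozen at 32 weeks of age. All were collected at ZT07, 7 hours after lights on, so a single time of day was sampled. The labels name no heart-specific promoter or Cre for the allele.

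Beta-oxidation removes acetyl-CoA units from a fatty acid in a repeated spiral, and the heart draws most of its energy from it. The double bonds of unsaturated fatty acids stop the spiral when they lie in the wrong place. The enoyl-CoA isomerases ECI1 and ECI2 move such a bond, the dienoyl-CoA isomerase ECH1 shifts a conjugated pair of bonds, and the dienoyl-CoA reductase DECR1 removes one bond with NADPH. The acyl-CoA dehydrogenases of the spiral give their electrons to the electron transfer flavoprotein, a dimer of ETFA and ETFB. ETFDH, in the inner mitochondrial membrane, passes them on to ubiquinone and the respiratory chain.

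Each deposited value is a log difference, for which the median of that probe set across the 16 arrays is 0. Such values compare hearts with each other, but hold no level of a transcript and cannot rank one gene's abundance against another's. The sources used here give neither the base of the logarithm nor its sign. A base of 2 was assumed, with higher expression as positive. Array medians lay between -0.00154 and 0.00281. WT chow replicate 2 stood apart in interferon-inducible genes: the GTPase gene Igtp lay at 3.57 there and between -0.25 and 0.41 on the other 15 arrays. Member calls that change without this array are given with and without it. Because the values are centred, the heart muscle markers could not be used to check the tissue label by their level. These are whole-tissue samples, so fewer cells of a type and less RNA per cell cannot be told apart.

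Averaged over the genotypes, 6 of the 7 members rose on HFD (0.812% of all genes tested rose), by 1.10-fold to 1.24-fold. Within a single genotype only Etfdh in WT hearts passed. Eci1 did not pass in the average either (0.18 ± 0.05, limma, adjusted p = 0.0753). Decr1 rose most, and the members' median difference was 0.195 on the log2 scale, against -0.00154 for all 22180 genes. In Clock hearts, Eci2 and Ech1 were lower than in WT hearts on the average over diets, by 1.18-fold and 1.16-fold, and none of the 7 passed as higher. The other 5 members did not pass for genotype. Of all genes, 1.44% fell and 2.44% rose in that comparison.

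**Figure D1:**
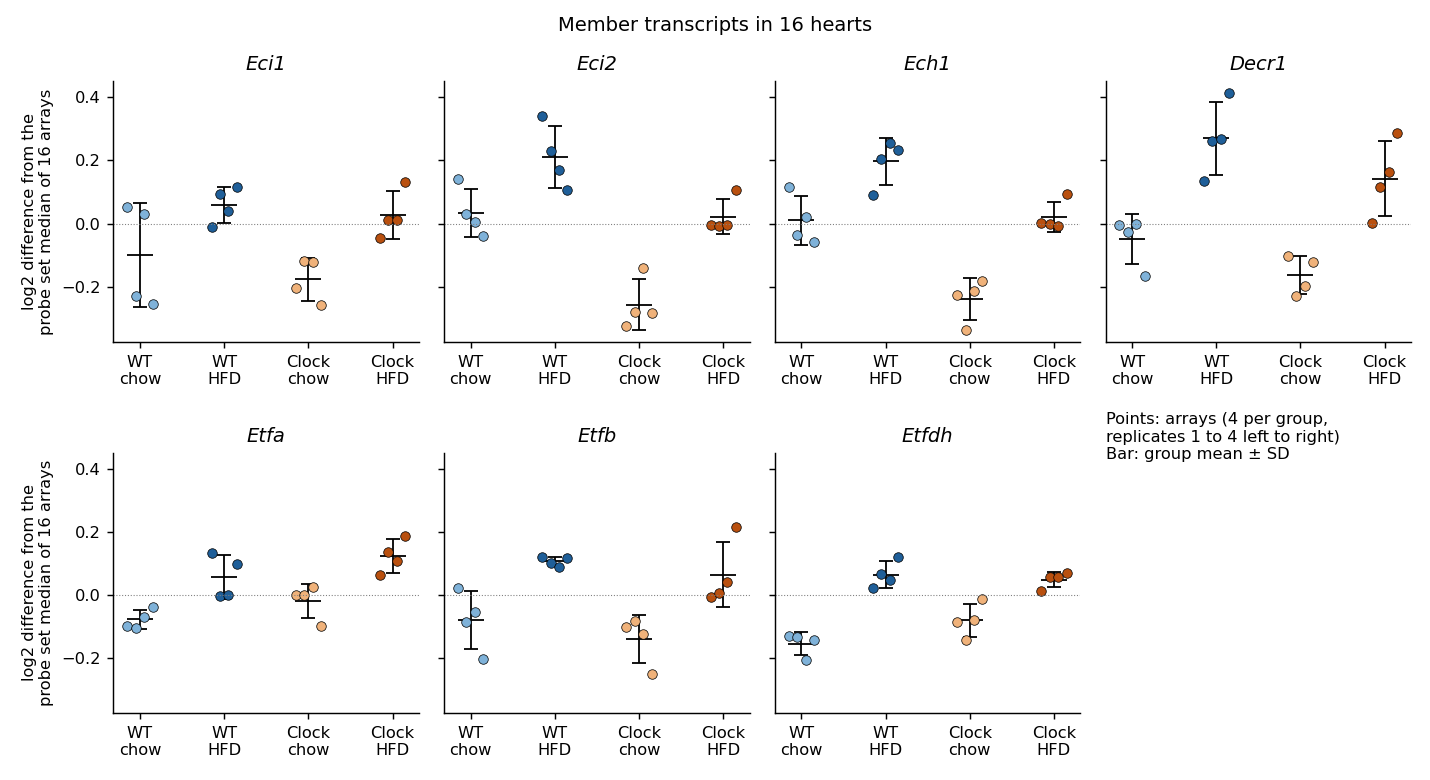
Log2 difference from the probe set's median over 16 arrays (vertical axis) for each of the 7 genes in the 4 groups, with points for single hearts and bars for the group mean ± SD (n = 4). In the panels for Eci2 and Ech1 all 4 Clock chow hearts lie below the 12 others, and in those for Decr1 and Etfdh all 8 HFD hearts lie above all 8 chow hearts.

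The isomerase genes are taken first. Since Eci2 and Ech1 were the members that moved with genotype, and Eci1 encodes an enzyme of the same class as Eci2 and did not pass for genotype, the 250 bases before the transcription start of these 3 genes are shown 5′ to 3′ (RefSeq, GRCm38.p6). They are Eci2 at chr13:34994145-34994394 on the minus strand, Ech1 at chr7:28825088-28825337 on the plus strand and Eci1 at chr17:24426433-24426682 on the plus strand. The Eci2 window lies inside the RefSeq span of that gene (chr13:34977748-35027115), so the start used is an internal one. The bases before the outer end of the Eci2 span were not searched. For Ech1 and Eci1 the window ends where the span of the gene begins. Capitals mark a GC box (GGGCGG) or a CCAAT box (CCAAT) on either strand.
Eci2: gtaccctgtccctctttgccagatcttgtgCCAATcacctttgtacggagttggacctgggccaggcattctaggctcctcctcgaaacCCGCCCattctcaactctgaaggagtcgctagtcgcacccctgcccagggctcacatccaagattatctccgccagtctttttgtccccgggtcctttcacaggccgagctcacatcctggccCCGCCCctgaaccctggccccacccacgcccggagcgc
Ech1: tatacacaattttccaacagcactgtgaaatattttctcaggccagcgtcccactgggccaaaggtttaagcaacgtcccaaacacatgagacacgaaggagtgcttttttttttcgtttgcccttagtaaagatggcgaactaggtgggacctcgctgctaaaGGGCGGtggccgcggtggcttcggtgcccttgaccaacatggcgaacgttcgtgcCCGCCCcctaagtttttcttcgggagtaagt
Eci1: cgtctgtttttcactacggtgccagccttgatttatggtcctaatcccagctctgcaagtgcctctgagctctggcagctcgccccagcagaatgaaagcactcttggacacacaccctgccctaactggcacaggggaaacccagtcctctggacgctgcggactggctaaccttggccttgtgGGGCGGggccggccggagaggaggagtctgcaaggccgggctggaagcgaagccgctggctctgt
Both Eci2 and Ech1 had 2 GC boxes in this window and Eci1 had 1, while no GC box was found for Etfa, Etfb or Etfdh. Of the 32851 RefSeq promoter windows of this length, 32.7% had at least 1. The share with 2 was not counted, so the copy numbers have no baseline. A CCAAT box was present in Eci2 and, among the other members with a promoter sequence, in Etfa, Etfb and Etfdh, against 33.8% of all windows. Of the 6 members with a sequence (Decr1 had none in the table), 0 had the E-box CACGTG bound by CLOCK and BMAL1, which 6.02% of all windows had. The nuclear receptor half-site AGGTCA (14% of all windows), its DR1 repeat, with 1 base between copies (0.0335%), the ERR element TCAAGGTCA (0.387%) and the D-box TTATGTAA (0.819%) were likewise found in 0 of 6. The half-site is contained in both the repeat and the ERR element. Each motif was searched on both strands. A match or its absence describes the letters of this window only.

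Eci2, whose isomerase is found in mitochondria and peroxisomes, lay in WT hearts on chow at 0.14, 0.031, 0.0043 and -0.038 in replicates 1 to 4, and on HFD at 0.34, 0.23, 0.17 and 0.11. The 4 Clock hearts on chow had -0.32, -0.28, -0.14 and -0.29, and those on HFD -0.0049, -0.0093, -0.0043 and 0.11. Every Clock chow heart was thus below every other heart, and Clock HFD hearts overlapped WT chow hearts. The group means ran from WT HFD (0.21 ± 0.10, SD, n = 4) through WT chow (0.034 ± 0.08) and Clock HFD (0.022 ± 0.06) to Clock chow (-0.26 ± 0.08). In that order the ranges of the first 3 neighbours overlap, and only Clock chow was separate from the group above it.

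Ech1 gave nearly the same order. It lay in WT hearts on chow at 0.12, -0.037, 0.021 and -0.059, and on HFD at 0.091, 0.21, 0.26 and 0.23. Clock hearts were at -0.23, -0.34, -0.21 and -0.18 when fed chow, and at 0.0006, -0.0006, -0.0091 and 0.093 when fed HFD. Here too all 4 Clock chow hearts were below the 12 others, a pattern that 34 of all genes showed (0.153%). The means were 0.20 ± 0.07 in WT HFD, 0.021 ± 0.05 in Clock HFD, 0.010 ± 0.08 in WT chow and -0.24 ± 0.07 in Clock chow hearts (SD, n = 4), and again only the last neighbours did not overlap.

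On chow, Eci2 was lower in Clock than in WT hearts by log2 -0.29 ± 0.06 (standard error of the limma fit, 1.22-fold, adjusted p = 0.0300) and Ech1 by -0.25 ± 0.05 (1.19-fold, adjusted p = 0.0415). These were the 2 of 7 members that fell on chow, where 0.252% of all genes fell, and 0 members rose (0.239% of all genes). The adjusted p of Eci2 came to between 0.0548 and 0.117 without WT chow replicate 1, 2 or 3 or Clock chow replicate 1, 2 or 4. That of Ech1 came to between 0.0512 and 0.130 without any of 11 arrays: WT chow 1, 2 and 3, WT HFD 2 and 4, Clock chow 1, 2 and 3, and Clock HFD 1, 2 and 3. Without WT chow replicate 2 the differences were -0.29 (adjusted p = 0.0951) and -0.27 (adjusted p = 0.0853). The difference stayed between -0.33 and -0.26 for Eci2 and between -0.27 and -0.21 for Ech1 whichever array was left out.

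On HFD, Eci2 differed between Clock and WT hearts by -0.19 ± 0.06 (95% interval -0.31 to -0.07, adjusted p = 0.121) and Ech1 by -0.18 ± 0.05 (-0.29 to -0.07, adjusted p = 0.110). Neither passed the threshold in the limma fit, and 0 of 7 members were called (1.9% of all genes were). At an unadjusted p under 0.05, 2 of 7 members were counted, against 13.5% of all genes. The 4 Clock and 4 WT hearts on HFD did not overlap for Eci2, as for 3.8% of all genes in that direction. The margin was very small, with the highest Clock heart at 0.1069 and the lowest WT heart at 0.1073. For Ech1 the genotypes overlapped by 1 Clock heart at 0.093 against the lowest WT heart at 0.091.

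Averaged over the diets, Eci2 fell by 0.24 ± 0.04 (limma, adjusted p = 0.00248) and Ech1 by 0.21 ± 0.04 (adjusted p = 0.00281). Both calls held whichever of the 16 arrays was left out, with adjusted p up to 0.00738 and 0.00801. The interval was -0.33 to -0.15 for Eci2 and -0.29 to -0.14 for Ech1. This average uses the same arrays as the chow and HFD differences and adds no independent sample.

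Eci1, the other mitochondrial enoyl-CoA isomerase gene, ran from -0.25 to 0.05 in WT chow, -0.01 to 0.11 in WT HFD, -0.26 to -0.12 in Clock chow and -0.05 to 0.13 in Clock HFD hearts. The WT chow hearts fell apart for this gene, with replicates 2 and 4 at -0.23 and -0.25 and replicates 1 and 3 at 0.05 and 0.03. Its average diet difference passed without WT chow replicate 1 (0.21, adjusted p = 0.0410) or 3 (0.20, adjusted p = 0.0498) and with repeated quantile normalization (0.17, adjusted p = 0.0490). The genotype difference of Eci1 averaged over diets was -0.05 ± 0.05 (95% interval -0.16 to 0.05, adjusted p = 0.659). Whether Eci2 and Eci1 differed in their response to the genotype was tested directly on the difference between the genes within each array. Eci2 minus Eci1 lay at 0.13 ± 0.13 in WT chow, 0.15 ± 0.15 in WT HFD, -0.08 ± 0.07 in Clock chow and -0.0050 ± 0.03 in Clock HFD hearts (SD, n = 4). It was lower in Clock hearts by 0.186 on the log2 scale, averaged over diets (exact permutation of genotype within diet, two-sided, p = 0.00204, 0.00816 after Benjamini-Hochberg adjustment over the 4 such tests run). On chow alone the difference was -0.22 and on HFD alone -0.16. The same quantity moved with diet by 0.05 (exact permutation p = 0.370), so no difference between the 2 isomerase genes in their response to diet was detected with these arrays.

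Decr1, the reductase gene, lay in WT hearts at -0.0034, -0.025, -0.0028 and -0.17 on chow and at 0.13, 0.26, 0.27 and 0.41 on HFD. Clock hearts had -0.10, -0.23, -0.20 and -0.12 on chow and 0.0028, 0.12, 0.16 and 0.29 on HFD. All 8 HFD hearts were above all 8 chow hearts, as for 39 of all genes (0.176%). Averaged over genotypes Decr1 rose on HFD by 0.31 ± 0.05 (1.24-fold, limma, adjusted p = 0.00339). Within WT hearts the difference was 0.32 ± 0.07 (adjusted p = 0.0514) and within Clock hearts 0.31 ± 0.07 (adjusted p = 0.0986), neither past the threshold. Leaving out replicate 1 of WT HFD, or replicate 1 or 4 of Clock HFD, brought the WT difference past it (adjusted p between 0.0406 and 0.0465). For genotype it lay at -0.12 ± 0.05 averaged over diets (95% interval -0.22 to -0.02, adjusted p = 0.190). That difference was -0.11 on chow and -0.13 on HFD, with the 2 genotypes overlapping on each diet.

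The flavoprotein genes followed. Etfdh, which encodes the oxidoreductase that hands electrons to ubiquinone, lay in WT hearts at -0.13, -0.13, -0.21 and -0.14 on chow and at 0.022, 0.065, 0.049 and 0.12 on HFD. Clock hearts had -0.086, -0.14, -0.078 and -0.013 on chow and 0.013, 0.057, 0.056 and 0.070 on HFD. All chow hearts were below all HFD hearts, as for Decr1, and the genotypes overlapped on each diet. In WT hearts Etfdh rose on HFD by 0.22 ± 0.04 (1.16-fold, limma, adjusted p = 0.0254), the 1 of 7 members called there (0.185% of all genes rose). That call was lost without WT chow replicate 1, 3 or 4 or WT HFD replicate 2 or 4 (adjusted p between 0.0558 and 0.0740). In Clock hearts the difference was 0.13 ± 0.04 (adjusted p = 0.306). Averaged over genotypes it rose by 0.17 ± 0.03 (adjusted p = 0.00521), and this held without each array in turn.

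Etfb, the beta subunit gene, ran from -0.20 to 0.02 in WT chow, 0.09 to 0.12 in WT HFD, -0.25 to -0.08 in Clock chow and -0.01 to 0.22 in Clock HFD hearts. WT HFD hearts were tightly placed (SD 0.0142) and above every chow heart. Averaged over genotypes Etfb rose on HFD by 0.20 ± 0.04 (1.15-fold, limma, adjusted p = 0.0244). Etfa, the alpha subunit gene, ran from -0.10 to -0.04 in WT chow, -0.0047 to 0.13 in WT HFD, -0.10 to 0.02 in Clock chow and 0.06 to 0.19 in Clock HFD hearts. It rose by 0.14 ± 0.03 (1.10-fold, adjusted p = 0.0394), a call that was lost without any of 13 of the 16 arrays (highest adjusted p = 0.0829; 0.13 with adjusted p = 0.0725 without WT chow replicate 2) and kept without Clock HFD replicate 1, WT HFD replicate 2 or WT HFD replicate 3. For both subunit genes the HFD and chow hearts did not overlap within either genotype. Without WT chow replicates 2 and 4 together, the average diet differences of Eci2, Etfa and Etfb no longer passed (adjusted p = 0.0595, 0.111 and 0.111), while those of Ech1, Decr1 and Etfdh did.

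The 2 subunits work as a dimer, so their difference within each array was compared too. Etfa minus Etfb lay at 0.0020 ± 0.12 in WT chow, -0.05 ± 0.06 in WT HFD, 0.12 ± 0.03 in Clock chow and 0.06 ± 0.07 in Clock HFD hearts (SD, n = 4). It was higher in Clock hearts by 0.114, averaged over diets (exact permutation, two-sided, p = 0.0114, 0.0229 adjusted over the 4 tests), with 0.12 on chow and 0.11 on HFD. Neither subunit passed for genotype alone, at 0.06 ± 0.03 for Etfa (adjusted p = 0.348) and -0.05 ± 0.04 for Etfb (adjusted p = 0.600). The genotype difference of Etfdh was 0.03 ± 0.03 (95% interval -0.03 to 0.09, adjusted p = 0.681). With diet, Etfa minus Etfb moved by -0.06 (exact permutation p = 0.138). Both pairs of genes were chosen for their shared function with earlier results of these data known.

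**Figure D2:**
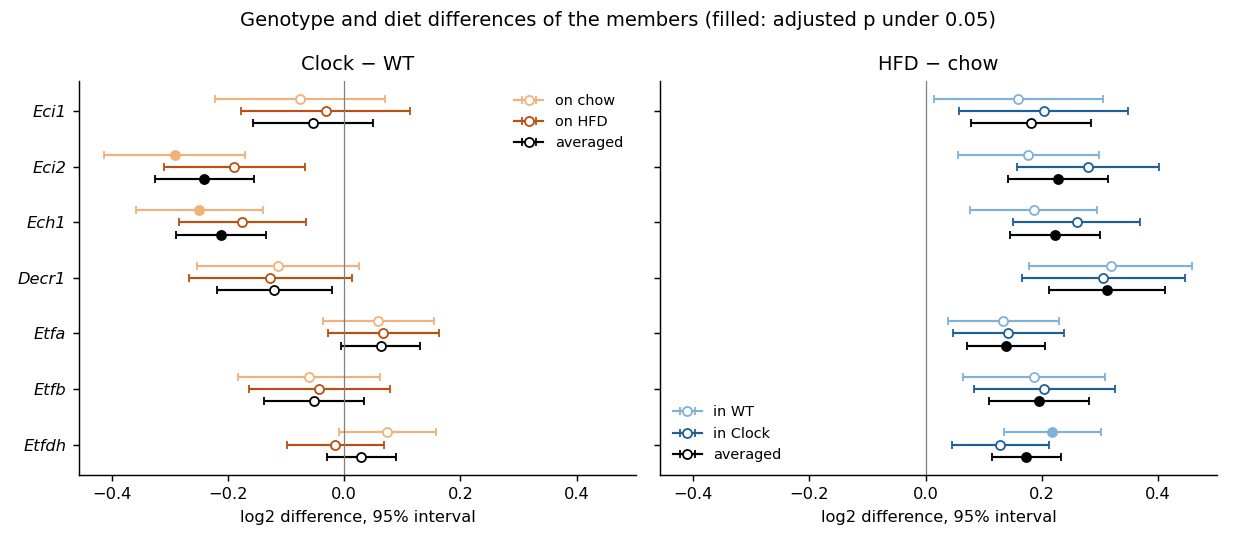
Log2 difference with its 95% interval from the limma fit (horizontal axis) for Clock minus WT hearts (left) and HFD minus chow hearts (right), within each stratum and averaged, 4 hearts per group. All 7 diet differences lie above 0 in both genotypes. The genotype differences of Eci2 and Ech1 lie below 0 on both diets with their whole intervals. Those of Eci1, Decr1 and Etfb also lie below 0 on both diets, but their intervals include 0.

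Within a genotype the diet differences of all 7 members were positive, from 0.13 to 0.32 in WT and from 0.13 to 0.31 in Clock hearts. In WT hearts 4 of 7 members had no overlap between HFD and chow (2.8% of all genes were separate in that direction), and in Clock hearts 7 of 7 had none (2.89% of all genes). By the adjusted p of limma, however, only Etfdh in WT hearts passed, and 0 of 7 passed in Clock hearts, where 0.0496% of all genes rose. At an unadjusted p under 0.05 all 7 were higher on HFD in each genotype, against 5.55% of all genes in WT and 4.63% in Clock hearts. The mean differences in WT and in Clock hearts share no array. Their p-values are not independent, because the limma fit pooled each gene's variance over the arrays of all groups. The Clock comparison also shares the Clock chow hearts with the genotype comparison on chow. For Eci2 and Ech1 those same low Clock chow values enter both.

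No interaction between genotype and diet was called for any member. The limma fit called 0 of 7 and 0% of all genes, with 1122 genes (5.06%) and 0 members at an unadjusted p under 0.05. The response to HFD was larger in Clock hearts by 0.10 ± 0.08 for Eci2 (95% interval -0.07 to 0.27) and by 0.07 ± 0.07 for Ech1 (-0.08 to 0.23). For Etfdh it was smaller by log2 -0.09 ± 0.06 (-0.21 to 0.03). The other 4 members lay between -0.01 and 0.04.

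**Figure D3:**
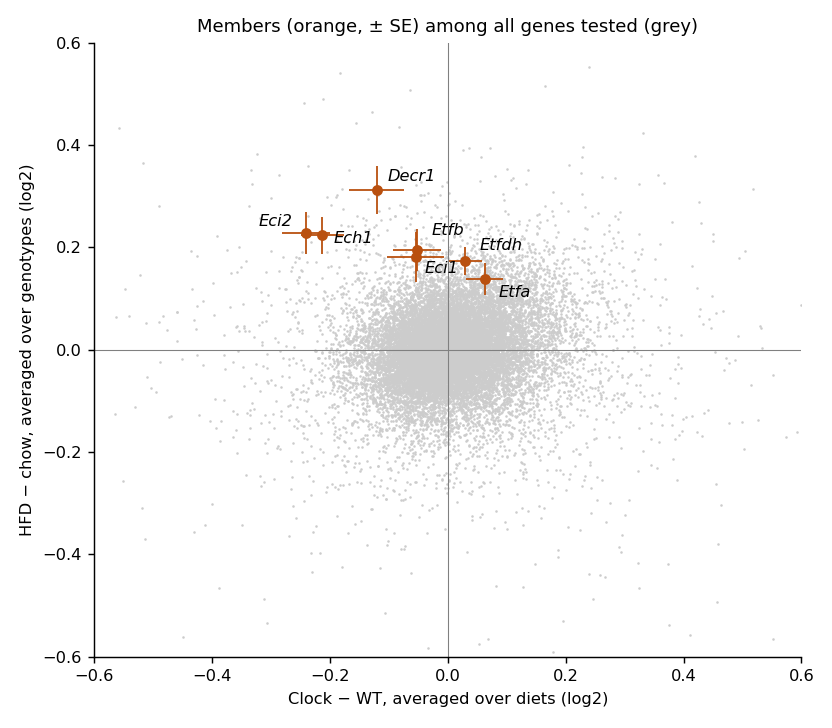
Each gene's Clock minus WT difference averaged over diets (horizontal axis, log2) against its HFD minus chow difference averaged over genotypes (vertical axis, log2), with the 7 members in orange (± SE) over all genes tested in grey (70 genes lie outside the limits of 0.6). The members lie between 0.14 and 0.31 on the diet axis and spread from -0.24 to 0.06 on the genotype axis.

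The members were also compared with each other across the 16 arrays. All 21 pairs had a positive Pearson correlation, with a median of 0.714. The closest pairs were Eci1 with Etfb (r = 0.90), Eci2 with Ech1 (r = 0.88) and Ech1 with Decr1 (r = 0.88). The lowest were Etfa with Ech1 (r = 0.25) and with Eci2 (r = 0.31). These values are descriptive, share the same 16 arrays and include the differences between the groups. When each group's mean was taken away, the median fell to 0.321 and 15 of 21 pairs were positive. Eci1 with Etfb (0.76) and Ech1 with Decr1 (0.69) remained high, whereas Eci2 with Ech1 came to 0.11 and Ech1 with Etfa to -0.30. Pooled over the groups, the deviations of Eci2 and Ech1 thus showed little likeness, but single groups differed. In WT chow hearts both genes were highest in replicate 1 and lowest in replicate 4, and in Clock HFD hearts both were highest in replicate 4. In WT HFD hearts, by contrast, replicate 1 was the highest for Eci2 (0.34) and the lowest for Ech1 (0.091).

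**Figure D4:**
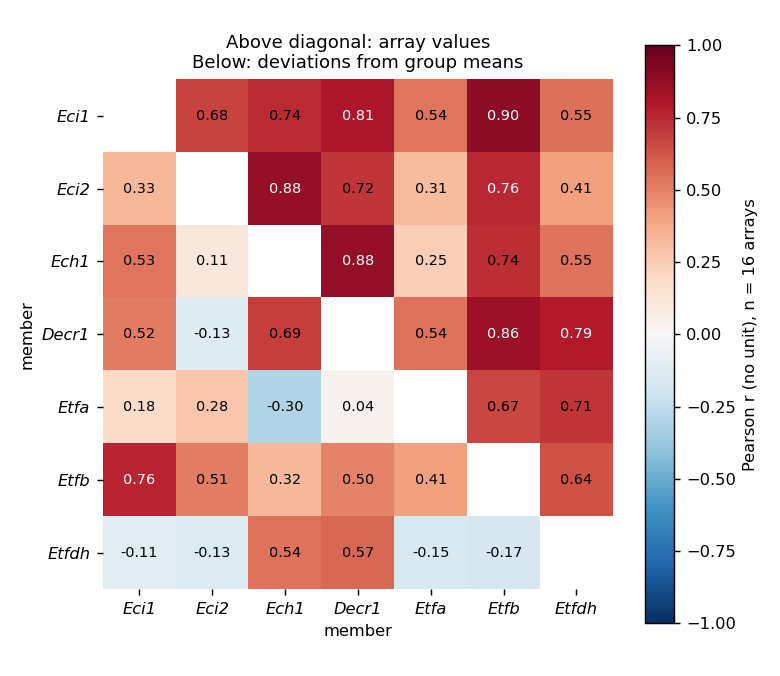
Pearson r between members (no unit, 16 arrays), above the diagonal from the array values and below it from deviations from the group means. The upper triangle is positive throughout, and the lower one has 6 negative pairs.

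Among 19236 other genes, predicted ones left out, Nkain1, which encodes a protein that interacts with the sodium pump, was most like Eci2 over the 16 arrays (r = 0.92). It was followed by the pyruvate dehydrogenase kinase gene Pdk1 (0.90) and by Ech1. Ech1 was most like the phospholipid acyltransferase gene Lpcat3 (0.94), the carnitine-acylcarnitine carrier gene Slc25a20 (0.94) and Ifrd2 (0.89). Decr1 was most like Hadha, the alpha subunit gene of the trifunctional protein of beta-oxidation (0.95), Vwa8 (0.94) and Slc25a20 (0.94). Eci1 followed Etfb, the glycogen phosphorylase gene Pygb (0.90) and the coenzyme A carrier gene Slc25a42 (0.89). Etfb followed the thiolase gene Acaa2 (0.93), Hadha (0.92) and Vwa8 (0.91). Etfdh followed the malic enzyme gene Me1 (0.92), the carnitine palmitoyltransferase gene Cpt2 (0.90) and the epoxide hydrolase gene Ephx2 (0.89). Etfa stood with other genes, the ubiquitin ligase gene Cop1 (0.93), the succinate-CoA ligase gene Suclg1 (0.91) and the phosphatase gene Ptpn11 (0.91). On deviations from the group means other genes led. They were Fbxo4 (0.90), Dsg1b and Vcpkmt for Eci2, Acss2 (0.85), Frem2 and Slc27a1 for Ech1, and Cpt2 (0.90), Rad52 and Il6ra for Decr1. Eci1 was led by Afg3l1 (0.96), Scarb1 and Trim35, and Etfb by Lrba (0.91), Serhl and Zfp280b. Etfdh was led by Dmrta2 (0.87), Btnl9 and Pld2, and Etfa by Homer2 (0.91), Ptcd2 and Zfp142. All genes in both rankings were picked as the highest among 19236 correlations over 16 arrays. Whether such values exceed those of unrelated genes was not tested.

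The rest of the pathway was read from lists fixed by name. Of 10 core beta-oxidation genes, 5 rose on HFD averaged over genotypes and 0 fell. They were the acyl-CoA dehydrogenase genes Acads (0.33 ± 0.05) and Acadvl (0.33 ± 0.04), Acaa2 (0.30 ± 0.03), Hadha (0.30 ± 0.03) and the hydroxyacyl-CoA dehydrogenase gene Hadh (0.16 ± 0.03), and the list's median was 0.147. For genotype none of the 10 passed and the median was 0.0046, beside -0.054 for the 7 members. Within WT hearts 4 of the 10 rose (Acads, Acadvl, Acaa2 and Hadha), and within Clock hearts 3 (Acadvl, Hadha and Acaa2).

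Of the 5 measured carnitine shuttle genes, which bring fatty acids into mitochondria, Slc25a20 (0.30 ± 0.05) and Cpt2 (0.28 ± 0.03) rose on HFD averaged over genotypes. In Clock hearts Cpt1a, a carnitine palmitoyltransferase of the outer membrane (-0.35 ± 0.08), and Slc25a20 (-0.19 ± 0.05) fell, averaged over diets. The related gene Cpt1b was on the list but was not measured, so nothing is known of it here. Slc25a20 thus fell with genotype and rose with diet, as Eci2 and Ech1 did. Cpt2 also rose in WT hearts alone (0.31 ± 0.05).

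Of 14 dehydrogenase genes whose enzymes feed electrons to the flavoprotein, Acads and Acadvl, which are in the core list too, rose on HFD and 12 did not pass. Their median diet difference was 0.0538, against 0.195 for the members. Among 6 genes for flavin supply and for the factors that act on the flavoprotein, the mitochondrial folate and FAD carrier gene Slc25a32 (0.27 ± 0.06) and Etfbkmt (0.26 ± 0.06), whose enzyme methylates ETFB, rose on HFD. Etfrf1, which encodes a regulator of the flavoprotein, was higher in Clock hearts (0.17 ± 0.04), averaged over diets.

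Among 9 peroxisomal genes Hsd17b4, the bifunctional enzyme of peroxisomal oxidation, rose on HFD (0.31 ± 0.04), also in Clock hearts alone (0.36 ± 0.06), and the other 8 did not pass for diet or genotype. Of 13 measured targets of the fatty acid receptor PPAR-alpha, 4 rose on HFD averaged over genotypes: the pyruvate dehydrogenase kinase gene Pdk4 (0.55 ± 0.12), the thioesterase gene Acot1 (0.44 ± 0.10), the lipid droplet gene Plin2 (0.22 ± 0.04) and the fatty acid transporter gene Cd36 (0.14 ± 0.03). The thioredoxin inhibitor gene Txnip fell in Clock hearts (-0.28 ± 0.07). Of the 12 PPAR receptors and their partners, Ppara (0.24 ± 0.05), Pparg (0.19 ± 0.05) and Rxrb (0.18 ± 0.04) rose in Clock hearts, averaged over diets, and none passed for diet. On HFD alone Pparg rose (0.31 ± 0.07).

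Downstream of ETFDH, 20 genes of ubiquinone synthesis and complex III were measured, and 0 passed for diet (limma). In Clock hearts Coq10b, which encodes a ubiquinone-binding protein, fell on chow (-0.75 ± 0.13), on HFD (-0.91 ± 0.13) and averaged over diets (-0.83 ± 0.09). Its relative Coq10a (0.19 ± 0.05) and the kinase-like gene Coq8a (0.27 ± 0.05) rose in the average. The adjusted p of every pathway list gene called a rise or a fall here was under 0.05 over all genes in the limma fit, and the highest was 0.0475 for Slc25a20 by genotype.

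**Figure D5:**
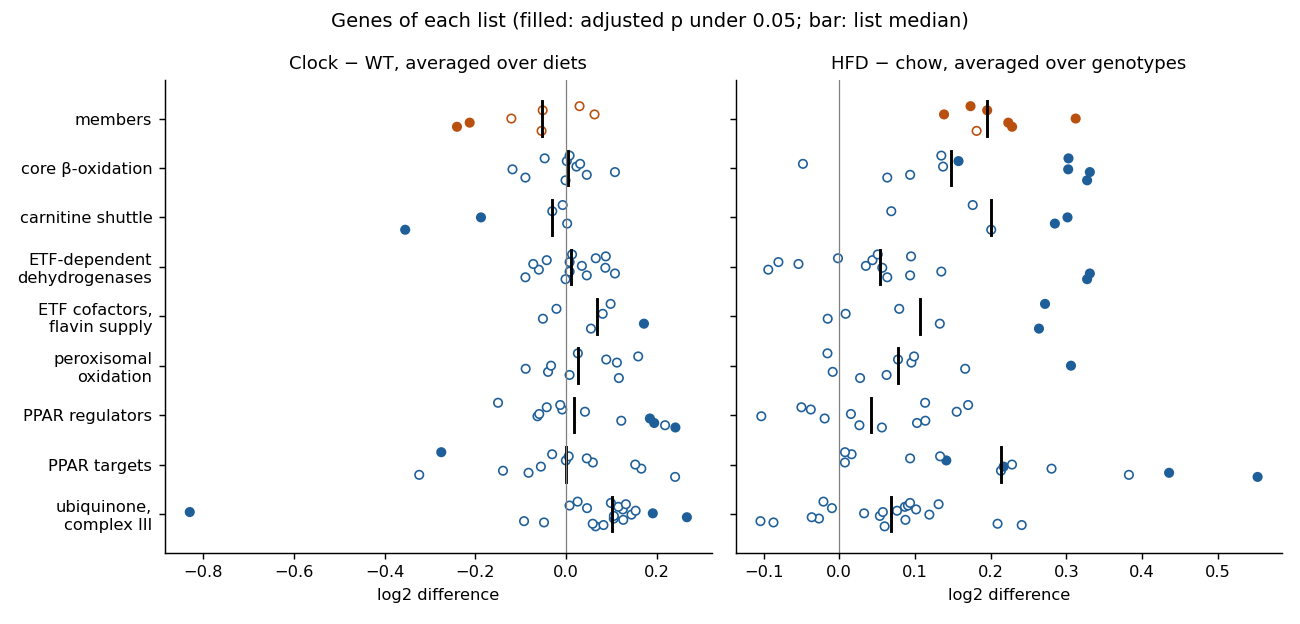
Log2 difference of each gene (points) in the members and in 8 lists of related genes, for Clock minus WT averaged over diets (left) and HFD minus chow averaged over genotypes (right), with list medians as bars and filled points past adjusted p = 0.05. On the diet axis the members' median of 0.195 lies near those of the carnitine shuttle (0.2007) and of the PPAR targets (0.2136).

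Markers of other cell types moved with genotype beside Eci2 and Ech1. Averaged over diets, 4 of 10 fibroblast markers (Col1a1, Postn, Gsn and Lum) and 5 of 11 endothelial markers (Cldn5, Robo4, Esam, Tek and Pecam1) rose in Clock hearts and 0 of either list fell. The fibroblast list mean ran from -0.24 to -0.07 in WT chow, -0.16 to 0.14 in WT HFD, -0.02 to 0.10 in Clock chow and -0.08 to 0.26 in Clock HFD hearts. The endothelial list mean ran from -0.08 to 0.03, -0.23 to -0.17, 0.03 to 0.15 and -0.04 to 0.17 in the same groups. Of 14 heart muscle markers, the calcium release channel gene Ryr2 rose (0.17 ± 0.03) and the slow myosin gene Myh7 fell (-0.61 ± 0.14). In that comparison 11 of the 14 differences lay above 0 and 3 below, with a median of 0.0282. The list mean ran from -0.02 to 0.14 in WT chow and from -0.20 to 0.08 in Clock chow hearts. On HFD it ran from -0.07 to 0.07 in WT and from -0.04 to 0.0005 in Clock hearts. The part of these markers in the genotype differences of Eci2 and Ech1 was not tested. In WT hearts the tight junction gene Cldn5 fell on HFD (-0.81 ± 0.17). With diet, averaged over genotypes, Kdr and Emcn fell among endothelial markers, and Postn, Ryr2 and the brown fat gene Cidea rose in their lists. None of the measured markers of smooth muscle and pericytes (8), macrophages (9), lymphocytes (6), neutrophils (6), red cells (1), white fat (6) or skeletal muscle (8) passed in any of the 7 comparisons.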

How the data were processed

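The authors hybridised biotin-labelled cRNA, made from 500 ng of total RNA by the Affymetrix protocol, per the labels' protocols. The deposited log values were read as log2, an assumption, since the sources used here give no base. From the values, each of the 34351 probe sets had a median of 0 over the 16 arrays (within 5e-07). The sources used here name no software, background correction or normalization, and centred values leave no filter on dim probes to try.

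The 23521 probe sets with 1 symbol in the platform annotation were averaged per gene (22180 genes). Genes were fitted with limma 3.58.1 in R 4.3.3, with 1 mean per group over all 16 arrays, two-sided moderated tests and Benjamini-Hochberg adjustment over all genes. The fit had 12 residual and 4.16 prior degrees of freedom, and the threshold was adjusted p under 0.05. It was also run on simulated data with known shifts in the Clock chow group. That run checked the code and bears on no call reported here. The 7 comparisons were genotype on each diet, diet in each genotype, their interaction and both averages. Labels call the arrays biological replicates, and the number of arrays limits precision.

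Named were all members, the 3 genes most like each (by array values and by deviations from group means) and, per pathway list and comparison, up to 3 passing genes with the largest change. Hadha, Hadh, Cd36, Igtp and the cell type markers named singly were chosen after their values were seen. Members and lists were chosen with earlier results of these data known. Exact permutation tests of gene differences were added after the data were seen. Other settings were single probe sets, all probe sets, robust eBayes, array weights, repeated quantile normalization, fits of just the 8 arrays in a comparison, the replicate number as a block, and arrays left out. Figures used Python 3.11.15 and matplotlib 3.10.9.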

Additional observations from a re-analysis of the deposited data

Results flagged for a closer look

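In 4 of the 28 sets of 4 hearts examined (7 genes in 4 groups), 1 heart lay far from the other 3, by a gap of more than 0.829 of the group's range. Chance flags about 1 in 20 such sets. Clock HFD replicate 4 was highest for Eci2 (0.107) and for Ech1 (0.093), where the other 3 hearts lay close together near 0. WT chow replicate 4 was lowest for Decr1 (-0.166), and WT chow replicate 3 was lowest for Etfdh (-0.207).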

How the results depend on the processing

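Averaged over diets the fall of Eci2 and Ech1, and averaged over genotypes the rise of Ech1, Decr1 and Etfdh, kept their call in every setting run. Over the planned settings other than leaving out arrays, 308 of 322 single-member results kept their direction and side of the threshold. Of the rest, 8 lost the call, 4 gained it and 2 changed sign. Most of the 322 were not called in the main fit and so had no call to lose. The members called on chow by genotype (2 in the report) came to 0 with only the 8 arrays compared, 0 with the replicate block, 0 without WT chow replicates 2 and 4 together and 0 to 2 without single arrays. Members called for HFD in WT (1) came to 0, 0, 0 and 0 to 2 in the same settings. Members called for HFD in Clock (0) came to 1 with array weights (Ech1) and 2 with repeated quantile normalization (Eci2 and Ech1). Members called for diet on average (6) came to 7 with quantile normalization, where Eci1 passed, 4 with the block, 3 without both arrays and 5 to 6 without single arrays. That pair of arrays, the lowest of the WT chow arrays for Eci1, Ech1, Decr1 and Etfb, was chosen after seeing the data.

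Counts over all genes moved as follows. By genotype on chow 109 became 38 with 8 arrays, 49 without both arrays and 49 to 144 without single arrays, and on HFD 422 became 241 to 490. For HFD in WT 78 became 46 with all probe sets, 15 with 8 arrays, 41 with the block, 11 without both arrays and 28 to 90 without single arrays. For HFD in Clock 20 became 53 with array weights, 43 with quantile normalization, 7 with 8 arrays, 12 with the block and 6 to 27 without single arrays. The averages of 861 and 341 became 507 and 141 without both arrays, and the latter 218 to 329 without single arrays. Settings with fewer arrays have less precision, and otherwise the cause was not tested.

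Signs changed only for uncalled values: the interaction of Etfa was -0.0026 with array weights, and that of Decr1 was 0.0075 with quantile normalization and 0.0332 without both arrays. Without single arrays the interaction ran from -0.0075 to 0.0952 for Eci1, -0.0613 to 0.0351 for Decr1, -0.0179 to 0.0340 for Etfa and -0.0327 to 0.0588 for Etfb, and the genotype difference of Etfdh on HFD from -0.0294 to 0.0038. Of the differences between genes, Etfa minus Etfb by diet had an exact permutation p of 0.0367 without WT chow replicate 1.

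Replicate numbers are shared by the groups, but the labels tie them to nothing. Between groups, deviations of same-numbered arrays correlated at r from -0.149 to 0.163 (median -0.0201, 3 of 24 pairs over 0.1). Those of arrays with other numbers correlated at r from -0.203 to 0.209 (median 0.000735, 5 of 72 pairs over 0.1). Only 1 of 16 arrays correlated most with its own number. With the replicate block Eci2 and Ech1 on chow had adjusted p = 0.0673 and 0.0797, Etfdh in WT 0.0509, and the average diet differences of Etfa and Etfb 0.0774 and 0.0539. The block changed no other call of a member.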
